A study of Mus musculus with 12 samples.

Results

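The proteasome is the protease complex that degrades ubiquitin-tagged proteins, and the rows described here are all genes whose symbol begins with Psma, Psmb, Psmc or Psmd followed by a number. The rule found 40 of the 24411 genes in the tables. Of these, 19 belong to the core particle (Psma and Psmb) and 21 carry a Psmc or Psmd symbol. Of the 21, Psmc3ip is a meiotic recombination factor that shares only the start of its symbol, so 20 genes were treated as regulatory particle genes. Of the 20, Psmd5, Psmd9 and Psmd10 encode assembly chaperones and not subunits of the mature particle. All 40 genes had a position in RefSeq on GRCm38, and they lay on 16 chromosomes.

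The libraries were made from pools of 10 mouse blastocysts of the genotype ICR_WT, an outbred stock, produced by in vitro fertilization of superovulated oocytes and cultured in KSOM medium to 96 h after insemination (hpi). There were 12 libraries in 6 groups of 2. The groups combined 2 diets, ND and HFD, with the treatments C (control), siNT (siRNA without a target) and siNampt (siRNA against Nampt). The siRNAs were electroporated into one-cell embryos at 3 to 6 hpi. The labels do not spell out ND and HFD, while the series title speaks of normal weight and obese mice; the sources used here do not give parental ages or say whether C embryos were electroporated. The replicate number equals the batch label, so each group holds 1 library of batch 1 and 1 of batch 2. The labels do not say that the pools came from separate matings, so each p-value is set against the variation among pools, which may be technical in part.

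The core particle is a barrel of stacked rings. Alpha subunits (Psma) form the outer rings and gate the entrance, and beta subunits (Psmb) form the inner rings that hold the catalytic sites. The regulatory particle caps the barrel: its ATPases (Psmc) unfold substrates, and its other subunits (Psmd) bind ubiquitin chains and remove them. In early embryos the proteasome clears maternal proteins while the embryo takes over its own transcription. Interferon-inducible beta subunits replace catalytic ones in the immunoproteasome, the form best known from immune cells.

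The widest gap in level between a constitutive catalytic subunit and its inducible counterpart was that of Psmb5, the chymotrypsin-like subunit, and Psmb8. The narrowest was that of Psmb6, the caspase-like subunit, and Psmb9. The promoter sequences of both pairs are therefore shown, from 250 bases before to 50 bases after the RefSeq transcript start on GRCm38, 5′ to 3′ on the gene's own strand. Capitals mark matches, on either strand, to TGACNNNGC (the core of the antioxidant response element, which the proteasome regulator Nfe2l1 binds) and CCAAT (the CCAAT box), and to 2 interferon-related motifs, TTCNNNGAA (the core of the gamma-activated site) and the interferon-stimulated response element, searched by its core.
Psmb5: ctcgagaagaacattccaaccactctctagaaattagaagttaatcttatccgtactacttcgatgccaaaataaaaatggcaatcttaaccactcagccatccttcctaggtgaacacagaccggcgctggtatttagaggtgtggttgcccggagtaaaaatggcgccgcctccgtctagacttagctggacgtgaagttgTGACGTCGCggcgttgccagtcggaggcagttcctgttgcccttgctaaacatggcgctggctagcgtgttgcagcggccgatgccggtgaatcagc
Psmb8: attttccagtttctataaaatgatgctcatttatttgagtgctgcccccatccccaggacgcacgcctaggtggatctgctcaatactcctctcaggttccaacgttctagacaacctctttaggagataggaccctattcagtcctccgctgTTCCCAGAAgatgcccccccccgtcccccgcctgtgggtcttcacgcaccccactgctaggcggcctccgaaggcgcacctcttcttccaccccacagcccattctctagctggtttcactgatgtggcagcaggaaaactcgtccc
Psmb6: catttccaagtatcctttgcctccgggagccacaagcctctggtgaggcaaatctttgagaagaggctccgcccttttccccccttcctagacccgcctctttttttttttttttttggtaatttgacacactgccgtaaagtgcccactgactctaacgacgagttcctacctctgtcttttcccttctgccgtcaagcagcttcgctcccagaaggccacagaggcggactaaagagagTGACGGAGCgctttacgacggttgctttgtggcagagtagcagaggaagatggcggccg
Psmb9: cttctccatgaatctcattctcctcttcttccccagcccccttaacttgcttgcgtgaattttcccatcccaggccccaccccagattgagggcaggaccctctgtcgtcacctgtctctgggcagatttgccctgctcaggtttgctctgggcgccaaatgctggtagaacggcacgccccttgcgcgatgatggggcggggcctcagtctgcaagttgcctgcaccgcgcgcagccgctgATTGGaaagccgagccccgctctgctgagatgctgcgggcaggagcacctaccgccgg

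These windows are chr14:54617946-54618245 on the minus strand for Psmb5, chr17:34197945-34198244 on the plus strand for Psmb8, chr11:70525107-70525406 on the plus strand for Psmb6 and chr17:34187281-34187580 on the minus strand for Psmb9. Psmb5 and Psmb6 each held 1 match to TGACNNNGC, Psmb8 held 1 match to TTCNNNGAA, and Psmb9 held 1 CCAAT box, read as ATTGG on the printed strand. RefSeq windows were matched for 33 of the 40 genes, 35 windows in all. TGACNNNGC occurred in 5 of these 35 windows, or 14.3%, against 12.4% of 32851 promoter windows of the same length. CCAAT occurred in 14, or 40.0%, against 37.4% of all windows. TTCNNNGAA occurred in 2 (5.71% against 8.30%) and the interferon-stimulated response element in 3 (8.57% against 3.44%). The latter 3 windows were those of Psmb3, Psmd4 and Psmd9, and the windows of the inducible Psmb8, Psmb9 and Psmb10 held no match to it. A match is a string of letters and not a measured site.

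Most core genes were among the most abundant transcripts of these blastocysts. Levels are compared between genes as TPM, a relative transcript level that allows for transcript length. The 14 constitutive core genes (Psma1 to Psma7 and Psmb1 to Psmb7) had mean levels from 457 TPM for Psmb4 to 1611 TPM for Psma7, a 3.52-fold range. Psma7, an alpha subunit, stood at 1580, 1701, 1549, 1515, 1605 and 1565 TPM in the ND libraries (C, siNT and siNampt, replicate 1 before replicate 2 in each). In the HFD libraries it stood at 1644, 1556, 1640, 1507, 1614 and 1852 TPM in the same order. Its highest library, HFD_siNampt replicate 2, was 1.23-fold above its lowest, HFD_siNT replicate 2. By mean level the 14 genes ranked from 122 (Psma7) to 416 (Psmb4) of all 24411 genes. Psmb2 followed at 1470 TPM ± 75.0, Psma2 at 1442 TPM ± 98.0 and Psmb3 at 1380 TPM ± 107 (SD, n = 12). The neighbours Psmb2 and Psma2 differed by less than the SD of either. Of 480 deposited expected counts of these genes, 9 were not whole numbers to within 0.005, all of them of Psmb5.

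Regulatory particle genes were mostly lower than the constitutive core genes, though the highest reached the level of Psmb5 (488 TPM) and Psmb4 (457 TPM). The Psmd genes were more unequal than the constitutive core genes, while the 6 ATPases were not. The highest was Psmd14, the deubiquitinase of the particle, at 490 TPM ± 40.5 (SD, n = 12), followed by the ATPases Psmc1 at 457 TPM ± 54.8 and Psmc6 at 445 TPM ± 49.9. Psmd14 and Psmc1 differed by less than the SD of either, as did Psmc1 and Psmc6. The 6 ATPases, which assemble in equal numbers into 1 ring, spanned 177 TPM (Psmc3) to 457 TPM (Psmc1), a 2.57-fold range. The Psmd genes without the chaperones spanned a 16.7-fold range, down to Psmd3, a subunit of the lid, at 29.4 TPM ± 7.31. Psmd2, a scaffold subunit of the base that receives ubiquitin shuttles, also stood low at 71.2 TPM ± 14.8. Among the chaperones, Psmd5 had 126 TPM ± 17.0, Psmd10 had 90.3 TPM ± 5.97 and Psmd9 had 18.2 TPM ± 3.39. Psmc3ip, the gene outside the proteasome, had 52.0 TPM ± 5.58.

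**Figure D1:**
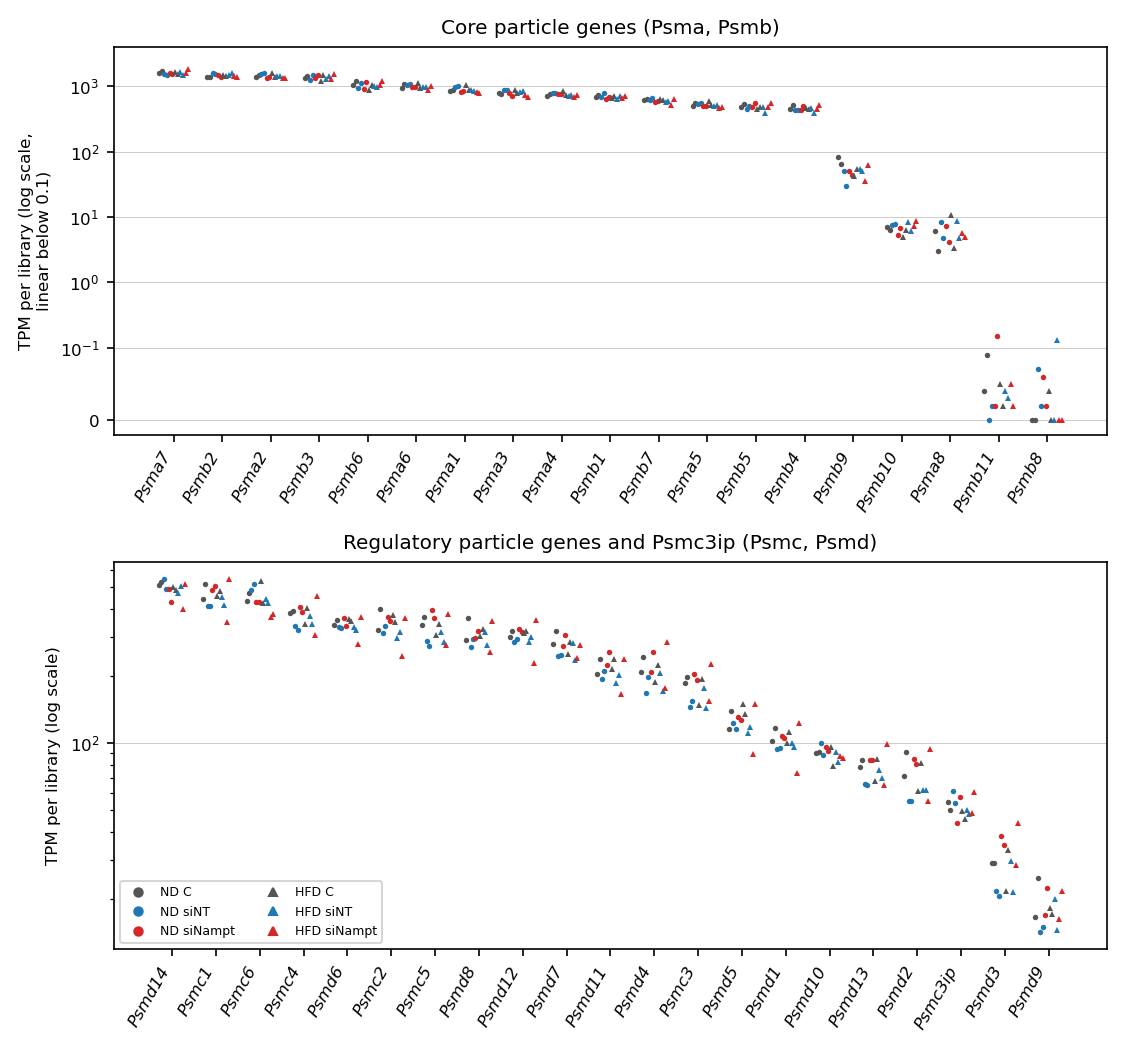
TPM of all 40 genes in each of the 12 libraries, 1 point per library, core genes above and Psmc or Psmd genes below, ordered by mean level. Circles are ND and triangles are HFD libraries, and colours give the treatment. The 14 constitutive core genes sit together between 390 and 1852 TPM, while Psmb9, Psmb10, Psma8, Psmb11 and Psmb8 lie apart below them.

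The constitutive catalytic subunits far exceeded their inducible counterparts in all 12 libraries. Psmb5 ranged from 390 to 551 TPM with a median of 489 TPM. Its counterpart Psmb8 had 16 expected counts in all 12 libraries together, 0 in 6 of them and at most 6, in HFD_siNT replicate 2. In every other library it was at or below 3 counts, the limit that a count of 0 allows, and the filter on low counts removed it from the tests. Psmb6 ranged from 893 to 1206 TPM, and Psmb9 was 2.64% to 7.84% of it. Psmb7, the trypsin-like subunit, ranged from 517 to 653 TPM, and its counterpart Psmb10 was 0.783% to 1.44% of it. The 3 inducible genes together made 1.65% to 4.11% of the summed TPM of the 3 catalytic genes.

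Psmb9 was the only one of the 3 inducible subunits above 10 TPM in any library. In the ND libraries it stood at 82.0 and 64.6 TPM in C, 50.1 and 29.6 TPM in siNT, and 49.8 and 43.9 TPM in siNampt (replicates 1 and 2). In the HFD libraries it stood at 41.9 and 53.5 TPM in C, 53.5 and 50.2 TPM in siNT, and 35.3 and 63.0 TPM in siNampt. The 2 ND_C libraries were the highest and ND_siNT replicate 2 the lowest, and the treatments overlapped. Over both diets edgeR's quasi-likelihood test gave a log2 fold change of -0.10 (SE 0.22) for siNampt against siNT, with an adjusted p of 0.885. Psmb10 ranged from 4.92 to 8.63 TPM, with a log2 fold change of -0.24 (SE 0.18, adjusted p = 0.631) in the same edgeR fit.

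Psmb9 and Psmb8 are neighbours in the major histocompatibility complex on chromosome 17, beside the peptide transporter genes. On GRCm38, Psmb9 spans 34182030 to 34187330 and Psmb8 spans 34198195 to 34201454. Tap1, which lies between them, had 1.45 to 4.54 TPM, against 29.6 to 82.0 TPM for Psmb9. Tap2, beyond Psmb8, had 0 to 0.12 TPM. By expected counts Psmb9, with 838 to 2440 per library, was also above Tap1, with 182 to 559, while Tap2 with 0 to 12 and Psmb8 with 0 to 6 were both near 0. Of 6 leukocyte markers, which would mark blood cells in the pools, Ptprc had 0 to 4 counts and Tyrobp 0 to 1, while Cd74 had 4.05 to 19.3 TPM and Laptm5 had 1.81 to 6.13 TPM. The summed leukocyte list was 8.37 to 24.9 TPM, and the part of other cells in the Psmb9 level was not tested.

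Psma8, the alpha subunit that takes the place of Psma7 in germ cells, had 2.97 to 10.8 TPM, or 0.175% to 0.657% of Psma7. Psmb11, the catalytic subunit of the thymus, had 0 to 30 counts per library and at most 0.15 TPM. Of 4 sperm markers, Tnp1 was at 0 in all 12 libraries and the summed list was 0.99 to 3.35 TPM. The part of RNA from other cells in the Psma8 level was not tested.

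Psma8 differed between the batches. This comparison was chosen after the values were seen. On the scale of CPM (counts scaled to library size with TMM factors), batch 1 and batch 2 of the ND groups had 9.10 and 4.20 as controls, 13.98 and 7.91 with siNT, 10.8 and 5.99 with siNampt. The HFD groups had 16.7 and 4.88 CPM as controls, 12.7 and 7.69 CPM with siNT, 8.28 and 6.72 CPM with siNampt. Batch 2 was lower in 6 of 6 groups, and over all libraries the lowest batch 1 value, 8.28 CPM, was above the highest batch 2 value, 7.91 CPM. In the edgeR model of diet, treatment and batch, Psma8 was 1.93-fold lower in batch 2, with a log2 difference of -0.95 (SE 0.19) and an adjusted p of 0.0338. It was 1 of 39 tested genes of the family that passed, against 0.549% of 14743 genes (0.346% higher and 0.203% lower). At an unadjusted p under 0.05 there were 5 higher genes, Psmb3, Psmb6, Psmd2, Psmd4 and Psmd11, and Psma8 alone was lower, against 4.78% and 5.17% of all genes and 9.95% in either direction. The call was lost without any 1 of 10 libraries (adjusted p up to 0.109), and kept without HFD_C replicate 1 or HFD_siNampt replicate 1. The log2 difference stayed between -1.07 and -0.75 in these fits. In limma on log2(TPM + 1) the adjusted p was 0.0817. The sources used here do not say what the batch label stands for.

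**Figure D2:**
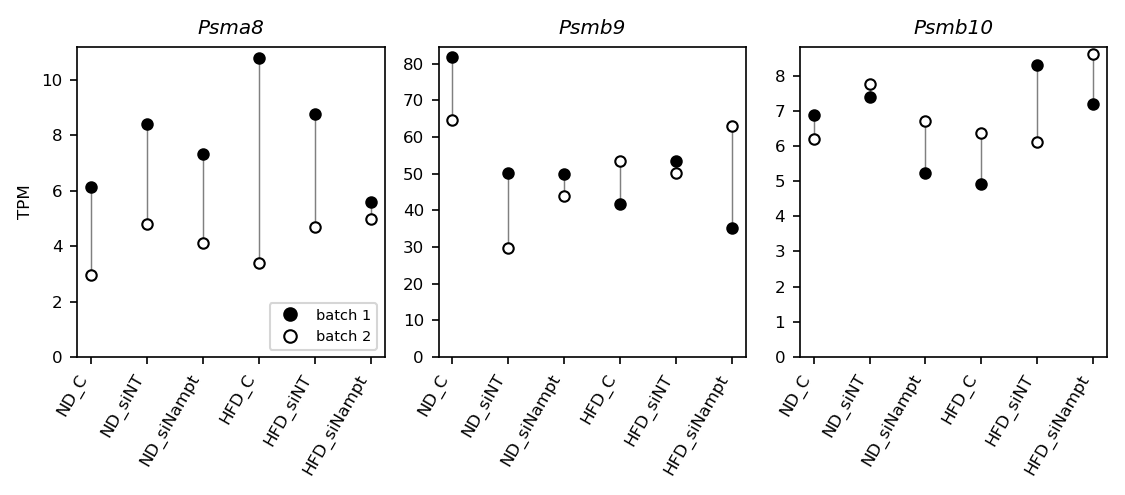
TPM of Psma8, Psmb9 and Psmb10 in the 6 groups, with batch 1 as filled and batch 2 as open circles joined by a line, 1 library each. Psma8 is lower in batch 2 in 6 of 6 groups, while Psmb9 and Psmb10 have no common order of the batches.

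The summed core level varied little between libraries and the summed regulatory level varied more. The core genes summed to 12393 to 13993 TPM, a 1.13-fold range. The regulatory genes summed to 3864 TPM in HFD_siNampt replicate 1 and to 5367 TPM in HFD_siNampt replicate 2, a 1.39-fold range whose lowest and highest values are the 2 replicates of 1 group. The ratio of core to regulatory TPM ranged from 2.51 in ND_siNampt replicate 1 to 3.21 in HFD_siNampt replicate 1. A TPM sum is a share of the RNA counted, and in pools fewer cells of a type and less RNA per cell cannot be told apart.

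Across the 12 libraries, genes of the same particle varied together more than genes of different particles did. After base composition and transcript length were allowed for, this held for the regulatory genes but not for the core genes. Over 91 pairs of the 14 constitutive core genes the median Pearson correlation of log2 CPM was 0.56, and 86 pairs were above 0. Over 190 pairs of regulatory genes it was 0.52, and between the 2 particles it was 0.16. The median over pairs of all genes was 0.00049. These points share libraries, and library depth and base composition enter all of them. After the trend on GC content and transcript length was removed within each library, the core median was 0.17, the regulatory median 0.41 and the median between particles 0.17.

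The central comparison asks what the siRNA against Nampt changed in embryos of both diets. Nampt itself, the rate-limiting enzyme of NAD salvage, had a log2 fold change of -0.43 (SE 0.17) in siNampt against siNT, lower in 4 of 4 pairs matched on diet and batch, and did not pass (edgeR adjusted p = 0.396). In the exact two-sided permutation test of its 8 libraries p was 0.0857, where the smallest possible value is 0.0286. The ND libraries had 54.2 and 38.2 CPM of Nampt in C, 74.6 and 49.4 in siNT, and 53.9 and 37.7 in siNampt (replicates 1 and 2). The HFD libraries had 67.0 and 57.3 CPM in C, 61.3 and 66.0 in siNT, and 50.3 and 44.0 in siNampt. In ND each siNampt library was thus close to the C library of its batch, and the siNT library was above both. Of the 39 proteasome-named genes tested, 0 passed the adjusted threshold of 0.05 in edgeR, DESeq2 or limma, as did 0 of all 14743 genes in edgeR (0%).

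On uncorrected counts most core genes were lower in siNampt than in siNT by small amounts, though none passed. The amount and the direction depended on the scaling, and with the GC content and length correction 10 of 18 core genes were below 0. The median log2 fold change was -0.24 over 18 core genes, of which 16 were below 0 (-0.076 in limma on log2(TPM + 1) and -0.012 with the GC content and length correction). It was -0.019 over 20 regulatory genes, of which 11 were below 0, but 0.12 and 0.057 in these alternatives and 0.079 without HFD_siNampt replicate 1. Over all genes tested the median was 0.025, and 47.2% were below 0. Of the alpha subunits 8 of 8 were below 0 with a median of -0.29 (4 of 8 and -0.018 with the correction), and of the beta subunits 8 of 10 with a median of -0.12 (6 of 10 and -0.012). At an unadjusted p under 0.05 there were 12 of 39 genes, 11 lower and 1 higher. The background was 11.2% of all genes in either direction, 5.05% lower and 6.10% higher. Of the 11 lower genes 9 were core genes: Psma1 to Psma6, Psmb1, Psmb2 and Psmb7. The other two were Psmc6 and Psmd14, and the 1 higher gene was Psmd3.

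Psma3, an alpha subunit, had the smallest p of the core genes. It stood at 1193, 1199, 962 and 1118 CPM in siNT (ND replicates 1 and 2, then HFD replicates 1 and 2). In siNampt it stood at 958, 842, 879 and 762 CPM in the same order. Each siNampt library was below every siNT library, while the C libraries, at 961, 885, 1117 and 918 CPM, overlapped both. The means were 860 CPM ± 81.6 in siNampt and 1118 CPM ± 110 in siNT (SD, n = 4). The log2 fold change was -0.38 (SE 0.11), with an edgeR adjusted p of 0.396.

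Psmb2, a beta subunit without a catalytic site, stood at 1130, 1074, 951 and 1123 CPM in siNT and at 917, 868, 901 and 801 CPM in siNampt. These groups did not overlap, and the log2 fold change was -0.29 (SE 0.09, edgeR adjusted p = 0.396). Psma2 stood at 1249, 1324, 1044 and 1172 CPM in siNT and at 957, 1002, 997 and 904 CPM in siNampt, again without overlap, at -0.31 (SE 0.10). Among the catalytic subunits the log2 fold change was -0.23 (SE 0.09) for Psmb7, -0.060 (SE 0.11) for Psmb6 and 0.022 (SE 0.09) for Psmb5. Of these 0 passed the adjusted threshold, and the differences between them were not tested. Psma8 was lower in 4 of 4 pairs in CPM, at -0.41 (SE 0.37), and at -0.18 (SE 0.33) with the GC content and length correction. In TPM its HFD_siNampt replicate 2, at 4.97, was above HFD_siNT replicate 2, at 4.71. Psma7 was at -0.064 (SE 0.08), and at 0.069 (SE 0.06) with the correction.

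In the regulatory particle the leading genes lay in opposite directions. Psmd3 stood at 47.4, 44.6, 55.6 and 46.2 CPM in siNT and at 73.8, 66.8, 55.4 and 77.4 CPM in siNampt. The 2 groups met at HFD replicate 1, whose siNampt library was just below its siNT library, and the other 3 siNampt libraries were above all siNT libraries. The log2 fold change was 0.50 (SE 0.14, edgeR adjusted p = 0.396). Psmc6, an ATPase, stood at 736, 778, 584 and 637 CPM in siNT and at 574, 573, 496 and 470 CPM in siNampt, at -0.37 (SE 0.12). Its groups did not overlap in CPM, and it was lower in 4 of 4 pairs. In TPM its groups overlapped, since HFD_siNT replicate 2 at 427.25 TPM was below both ND_siNampt libraries, at 427.99 and 430.5 TPM. Psmc6, Psma3, Psmb2 and Psma2 were named for small p in these same libraries, so their separated groups are not further evidence. The share of all genes with separated groups was not counted. Psmd14 stood at 809, 729, 616 and 742 CPM in siNT and at 645, 564, 530 and 625 CPM in siNampt, at -0.29 (SE 0.10). Its groups overlapped, since HFD_siNT replicate 1 was below 2 of the siNampt libraries.

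**Figure D3:**
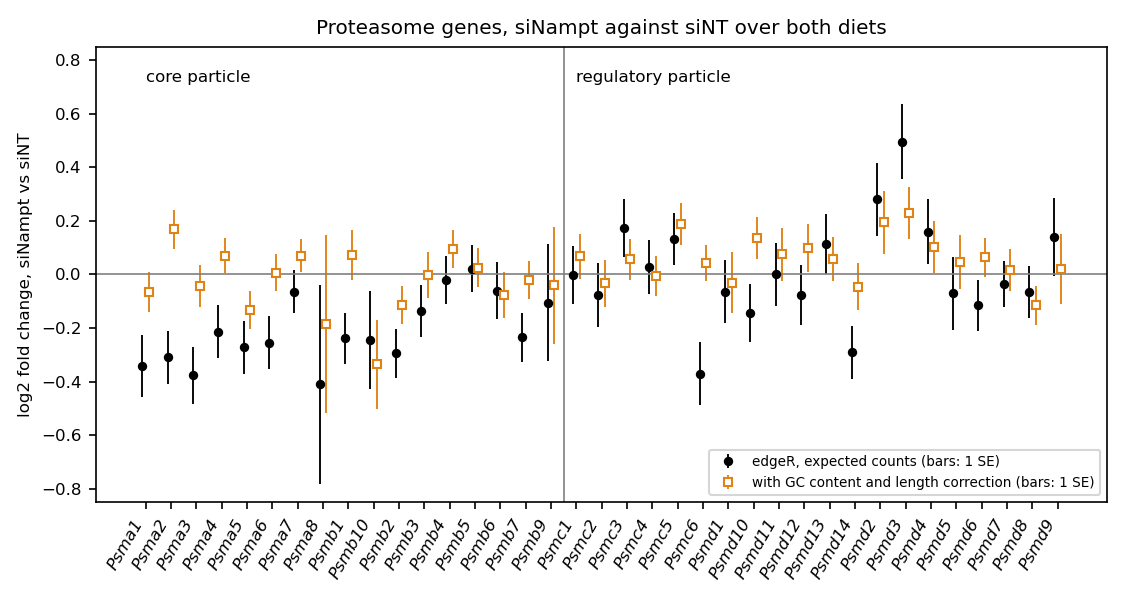
Log2 fold change of siNampt against siNT over both diets for 37 tested proteasome genes, with bars of 1 SE. Filled circles are the edgeR values from expected counts and open squares those with the GC content and length correction; Psmb11, which rests on at most 30 counts per library, is left out. The core genes sit mostly below 0 in the first and around 0 in the second.

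The fold changes of these genes followed the base composition of their transcripts. Across the 37 tested proteasome genes without Psmb11, the Pearson correlation of the log2 fold change with transcript GC content was 0.68, and with log2 transcript length it was 0.41. Across all 14667 tested genes with a GC value these were 0.29 and 0.064. These are correlations across genes of the same libraries, and genes are not independent replicates. Psmc6, at 37.0% GC, had one of the lowest fold changes, and Psmd3, at 58.3% GC, the highest. Core transcripts were also shorter, with a median of 1036 bases over all 19 core genes against 1582 for the 20 regulatory genes. Their median GC content was 50.7% against 49.6%. For the 14 constitutive core genes alone the medians were 983 bases and 48.9% GC.

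The correction removed the trend of counts on GC content and length within each library. The count at an unadjusted p under 0.05 was then 3 genes of 39, all higher, against 3.61% of all genes (5.09% in either direction): Psma2 at 0.17, Psmc5 at 0.19 and Psmd3 at 0.23. In all 15 of the 39 genes changed sign, among them 5 of the 11 lower genes: Psma2, Psma4 (0.070), Psma6 (0.0073), Psmb1 (0.071) and Psmc6 (0.043). Psma3 was at -0.043 and Psmb2 at -0.11. With log2(TPM + 0.1) in limma the median of all genes itself shifted to 0.14, and relative to it the core median was -0.22 and the regulatory median -0.016. In each library the median deviation of the genes from their own means was set beside the deviation that the trend on GC content and length gave. The signs were the same in 11 of 12 libraries for the core genes and in 8 of 12 for the regulatory genes. No other set of genes was tallied in this way, and the cause of the core shift was not tested.

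**Figure D4:**
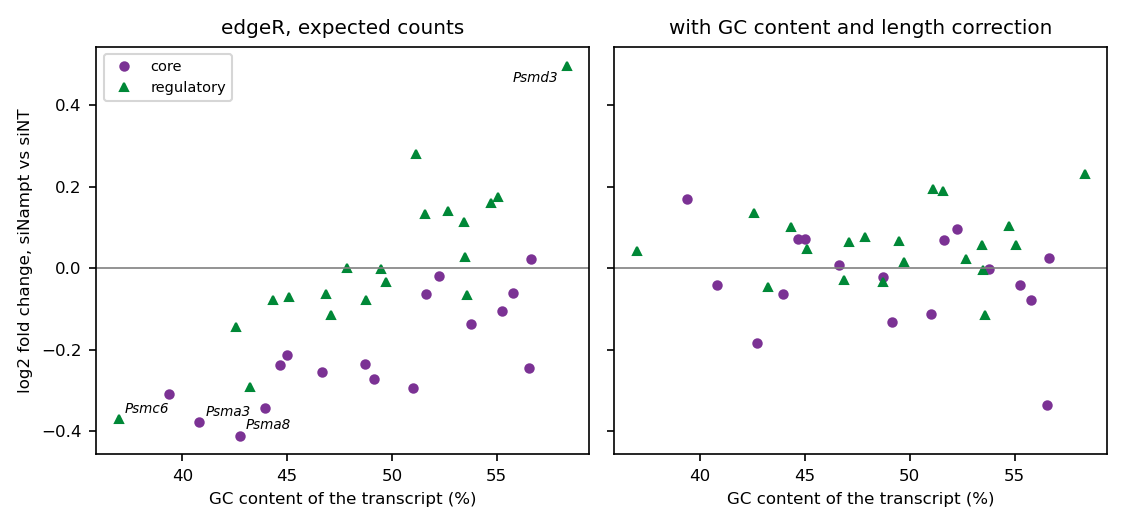
Log2 fold change of siNampt against siNT over both diets against the GC content of the transcript, 1 point per proteasome gene (37 genes), before (left) and after (right) the GC content and length correction. The slope on the left, from Psmc6 at 37.0% GC to Psmd3 at 58.3% GC, is not seen on the right. The correction subtracts each library's trend on GC content and length, so a flatter right panel is built in and is not a separate result.

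The summed level of the trophectoderm markers, which label the outer cell layer of the blastocyst, was higher with siNampt in 3 of 4 matched pairs. All 7 were at 1 TPM or more in every library, and the keratins Krt8 and Krt18 made 94.6% to 96.9% of their sum. The summed level was 5174, 4815, 3387 and 4925 TPM in siNampt against 3150, 2744, 3562 and 3337 TPM in siNT (ND replicates 1 and 2, then HFD replicates 1 and 2). The other 5 markers summed to 186, 147, 183 and 159 TPM in siNampt against 129, 123, 174 and 160 TPM in siNT. Of these 5, Gata3 and Tfap2c were higher with siNampt in 4 of 4 pairs, Cdx2 and Eomes in 3 of 4, and Elf5 in only 1 of 4. The inner cell mass list summed to 130, 141, 145 and 160 TPM in siNampt against 123, 134, 206 and 104 TPM in siNT. The primitive endoderm list summed to 61.4, 55.9, 84.0 and 68.5 TPM against 54.0, 62.3, 55.1 and 56.0 TPM. Both of these lists were thus also higher with siNampt in 3 of 4 pairs. All 7 cumulus and granulosa markers were under 1 TPM in all libraries. The part of cell composition in the core shift was not tested.

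Within matched pairs, the core median of uncorrected log2 CPM was below 0 in 4 of 4 pairs. It was -0.30 and -0.31 in the ND pairs of batches 1 and 2, and -0.073 and -0.20 in the HFD pairs. The regulatory median was 0.046 and 0.097 in the ND pairs, -0.22 in the HFD pair of batch 1 and 0.084 in that of batch 2. In the HFD pair of batch 1, 20 of 20 regulatory genes were lower in siNampt, and the siNampt library of that pair is the one with the lowest summed regulatory TPM.

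**Figure D5:**
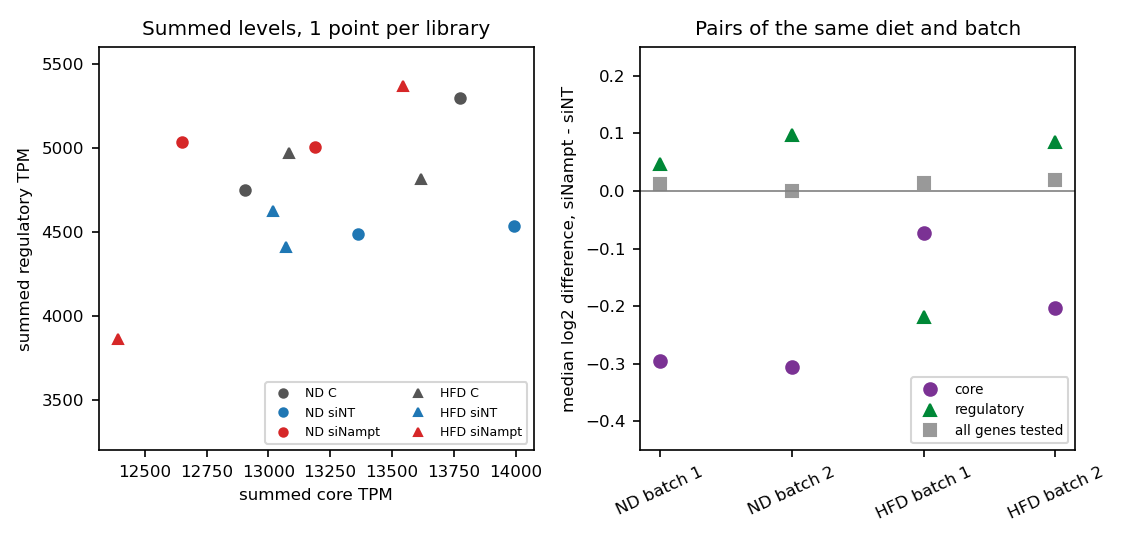
Left, summed core TPM against summed regulatory TPM, 1 point per library. Right, median log2 difference of siNampt minus siNT in each pair matched on diet and batch, for core genes, regulatory genes and all genes tested; without the GC content and length correction the core median lies below 0 in 4 of 4 pairs, and the regulatory median does so only in the HFD pair of batch 1.

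In ND alone, 14 of 14 constitutive core genes were below 0 in siNampt, against 49.0% of all genes. The core median was -0.30 (-0.036 with the GC content and length correction). With the correction 10 of 39 genes changed sign, Psma2 (0.10) among them. The genes at an unadjusted p under 0.05 in edgeR were then Psmb10, lower at -0.63 (SE 0.22), and Psmc5, higher at 0.31 (SE 0.11). The share of all genes in that corrected fit is not given here. On uncorrected counts there were 10 lower genes and 1 higher gene at an unadjusted p under 0.05. All genes gave 3.74% and 4.61% (8.34% in either direction), and 0 passed after adjustment. Psma1 was at -0.43 (SE 0.14), Psma2 at -0.39 (SE 0.14) and Psma3 at -0.41 (SE 0.15), and Psmd3 was at 0.61 (SE 0.21), with edgeR adjusted p-values of 0.536 to 0.543. Psmc6 was at -0.40 (SE 0.15) and Psmd14 at -0.35 (SE 0.15). Without 1 library the number of genes at an unadjusted p under 0.05 ranged from 3 (without ND_siNT replicate 2 or ND_siNampt replicate 1) to 13.

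In HFD alone, the core median was -0.19 and the regulatory median -0.080, which with the correction were 0.025 and 0.048. At an unadjusted p under 0.05 there were 3 genes, all lower, against 2.31% of all genes (4.27% in either direction, 1.97% higher): Psma3 at -0.34 (SE 0.14), Psmb2 at -0.28 (SE 0.13) and Psmc6 at -0.34 (SE 0.15), each with an edgeR adjusted p of 0.923. Psmd3 was at 0.38 (SE 0.21), Psmd14 at -0.23 (SE 0.15) and Psma5 at -0.23 (SE 0.13). With the correction 18 of 39 genes changed sign, Psma3 (0.029), Psmc6 (0.13) and Psmd14 (0.051) among them, 2 of 8 alpha subunits were below 0 in place of 7, and the 1 gene at an unadjusted p under 0.05 was Psma2, higher at 0.23, against 2.52% of all genes. Without 1 library the count of 3 ranged from 0 (without HFD_siNT replicate 2 or either ND_siNT library) to 5 (without HFD_siNampt replicate 1). The regulatory median was 0.023 in limma on log2(TPM + 1), 0.14 without HFD_siNampt replicate 1 and -0.26 without HFD_siNampt replicate 2, so the direction rests on which of these 2 libraries is kept.

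An interaction term tested whether the response differed by diet. At an unadjusted p under 0.05 there were 0 of 39 genes, against 3.06% of all genes, and 0 passed after adjustment. The median of HFD minus ND was 0.12 for core genes and -0.11 for regulatory genes. Psmb10 was at 0.54 (SE 0.35), Psmb1 at 0.24 (SE 0.19), Psmc5 at -0.26 (SE 0.19), Psmd7 at -0.17 (SE 0.18) and Psmd2 at -0.27 (SE 0.28), with edgeR adjusted p-values of 1.00. The regulatory median was 0.074 without HFD_siNampt replicate 1 and -0.35 without HFD_siNampt replicate 2, and Psmd2 was 0.016 without the former. At an SE of this size only large differences between the diets were detectable.

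The non-targeting siRNA was compared with the controls, which share the siNT libraries with the knockdown comparison. The core median was 0.12, with 16 of 18 genes above 0, but -0.015 with the correction and -0.0079 in limma on log2(TPM + 1). The regulatory median was -0.056, with 15 of 20 below 0. Psmb2 was at 0.25 (SE 0.09) and Psmb10 at 0.40 (SE 0.18), the 2 genes of 39 with an unadjusted p under 0.05 and both higher, against 1.97% of all genes (2.42% lower, 4.4% in either direction). The edgeR adjusted p was 0.984 for both. Psma3 was at 0.20 (SE 0.11), and in the regulatory particle Psmd2 was at -0.27 (SE 0.14), Psmd10 at 0.14 (SE 0.11) and Psmd3 at -0.16 (SE 0.14). The HFD pair of batch 1 had a core median of -0.15 against 0.17 to 0.25 in the other 3 pairs. For the fits without 1 library that follow, the share of all genes is not given. Without HFD_C replicate 1 the count at an unadjusted p under 0.05 was 10, and without HFD_siNT replicate 1 it was 4.

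The siNampt libraries were also compared with the controls. The core median was -0.097 (0.0090 with the correction) and the regulatory median -0.053 (0.044 without HFD_siNampt replicate 1). At an unadjusted p under 0.05 there were 2 genes: Psmd3 at 0.33 (SE 0.14), higher in 4 of 4 pairs, and Psmc6 at -0.26 (SE 0.12), lower in 4 of 4. All genes gave 2.19% higher, 1.61% lower and 3.8% in either direction. Psmd14 was at -0.18 (SE 0.10), Psma5 at -0.19 (SE 0.10), Psma1 at -0.19 (SE 0.12) and Psmb9 at -0.36 (SE 0.22), with edgeR adjusted p-values of 0.999. For Psma3 the mean was 970 CPM ± 103 in C, between the means of siNampt and siNT (SD, n = 4). With the correction 0 genes had an unadjusted p under 0.05.

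The diets differed little in this family. Over all treatments the median log2 fold change of HFD against ND was -0.066 for core genes, with 16 of 18 below 0, and -0.083 for regulatory genes, with 19 of 20 below 0, against 0.0030 for all genes. The core median was -0.023 with 12 of 18 below 0 with the correction, -0.030 without HFD_siNT replicate 1 and -0.12 without HFD_C replicate 1. The regulatory median was -0.052 with 20 of 20 below 0 with the correction, and -0.019 with 15 of 20 below 0 without HFD_siNampt replicate 1. In edgeR 0 of 39 genes had an unadjusted p under 0.05, where 3.22% of all genes did, and 0 passed after adjustment. Psmb5 was at -0.13 (SE 0.07), lower in 6 of 6 pairs matched on treatment and batch. Psmd7, the partner of Psmd14 in the lid, was at -0.13 (SE 0.07), and Psmc5 at -0.12 (SE 0.08), Psmd10 at -0.13 (SE 0.09), Psmb7 at -0.096 (SE 0.07) and Psma6 at -0.095 (SE 0.08). The regulatory median was below 0 in 4 of 6 pairs, and in the siNampt pair of batch 1 it was -0.39, with 20 of 20 genes lower. Without HFD_C replicate 1, 3 genes had an unadjusted p under 0.05.

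Of 37 further genes of the pathway, 36 were found and tested. Their fold changes are edgeR values from uncorrected counts. Values with the GC content and length correction are not given for them, so whether their directions depend on it is not shown. In siNampt against siNT 0 passed the adjusted threshold, and at an unadjusted p under 0.05 2 were higher and 3 lower, 5 of 36 genes where 11.2% of all genes were so called. The higher ones were Adrm1, a ubiquitin receptor of the regulatory particle, at 0.46 (SE 0.15), and Vcp, the segregase that hands over substrates, at 0.32 (SE 0.11). The lower ones were Psmg2, an assembly chaperone of the alpha ring, at -0.32 (SE 0.10), Rps27a, a ubiquitin fusion gene, at -0.28 (SE 0.11) and Uchl5, a deubiquitinase of the particle, at -0.23 (SE 0.11). Pomp, the maturation factor of the core particle, had 829 to 1020 TPM, within the range of the constitutive core genes, and a log2 fold change of -0.19 (SE 0.10). The activators Psme1 (110 to 150 TPM) and Psme2 (121 to 158 TPM), which pair with the immunoproteasome in immune cells, were at 0.044 (SE 0.10) and -0.070 (SE 0.10). In ND alone the same threshold gave 2 higher and 4 lower in siNampt, where all genes gave 4.61% and 3.74%. In HFD there were 1 higher and 1 lower, against 1.97% and 2.31%. The interaction gave 1 higher and 2 lower against 3.06% in either direction, and diet 0 against 3.22%. In siNT against C 1 was lower against 2.42%, Vcp at -0.30 (SE 0.11), and in siNampt against C 1 was lower against 1.61%, Usp14, another deubiquitinase of the particle, at -0.25 (SE 0.11).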

How the data were processed

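Poly(A) RNA of 12 pools of blastocysts was sequenced from SMART-Seq v4 PLUS libraries, per the labels' protocols. The submitters' processing notes name STAR 2.7.10, RSEM 1.2.28 and mm10. Per the file headers, the deposited values are the expected count, TPM, FPKM, length and effective length of each gene. The authors' expected counts (42473129 to 50503064 per library, 6.43% with a decimal part) were rounded for the tests, the deposited TPM values gave levels, and the deposited FPKM values were not used here. The sources used here do not give strandedness.

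edgeR 4.0.16 (R 4.3.3, TMM factors, quasi-likelihood tests, two-sided) was run on all 12 libraries. Filtering with filterByExpr at a minimum count of 10 left 14743 of 24411 genes, 39 of the 40 described. P-values were Benjamini-Hochberg adjusted over all of them at 0.05. An additive model of diet and treatment, or 6 group means, gave the comparisons. An SE is the absolute log2 fold change over the square root of F. The GC content and length correction subtracted a loess trend (span 0.5) within each library, with transcripts of the reference annotation (GENCODE; 40 of 40 genes matched). limma 3.58.1, with pseudocounts of 1 and 0.1, and DESeq2 1.42.0 were alternatives.

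The members, lists, tests and alternatives were chosen with earlier results of these data known; the batch comparison and the 2 interferon-related motifs were added after the values were seen. Genes named are those past the threshold, the 3 core and 3 regulatory genes of smallest p in each comparison (Psmb11 by its counts), the catalytic, inducible, thymic and germ-cell subunits, Psma7, the 3 highest and lowest of each particle by TPM, and Psmc3ip and the chaperones. Other genes in counts of 5 or fewer, and others named, were chosen after their values were seen.

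The batch label equals the replicate number, so the numbers pair libraries across groups. As a check, differences between replicates correlated at -0.058 to 0.22 over 15 pairs of groups, 6 above 0.1. On simulated data for the knockdown over both diets, 45% of 2-fold and 78% of 4-fold changes of 100 genes each were recovered with 4 false calls among 14743 genes, and for diet 58% and 81% with 7. The median SE was 0.157 for the knockdown over both diets, 0.225 within a diet, 0.318 for the interaction and 0.128 for diet. The limit of 3 counts covers counting error only.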

Additional observations from a re-analysis of the deposited data

Results flagged for a closer look

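In groups of 4 or 6 libraries, 6 of 90 sets of values had a lowest or highest library whose gap to its nearest neighbour was a large share of the whole range (above Dixon's 95% critical value). Chance gives about 1 in 20. In the siNT libraries, ND_siNT replicate 2 had 29.6 TPM of Psmb9 against 50.1 TPM in the nearest library, and with it the lowest share of inducible in catalytic subunits, 1.65% against 2.86%. HFD_siNT replicate 1 had 29.5 TPM of Psmd3 against 21.8 TPM in the nearest siNT library, and 20.1 TPM of Psmd9 against 15.0 TPM. HFD_siNampt replicate 2 had 1852 TPM of Psma7 against 1614 TPM in the nearest siNampt library. The same library had 60.7 TPM of Psmc3ip against 50.2 TPM in the nearest HFD library.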

How the results depend on the processing

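No alternative brought a member past the adjusted threshold in the 7 comparisons of diet and treatment. Counts below are members at an unadjusted p under 0.05, and medians are log2 fold changes. The cause of each change was not tested. The share of all genes at this p is given above for the main fits and for the correction over both diets and in HFD. For the other alternatives and the fits without 1 library, here and above, that share is not given. A changed count there cannot be called particular to these genes. The GC content and length correction, alone and with the replicate block, gave counts of 3 and 3 for siNampt against siNT over both diets, 2 and 2 in ND, 1 and 1 in HFD, 1 and 1 for siNT against C, and 0 and 0 for siNampt against C. The core medians were -0.012 and -0.011 over both diets, -0.036 and -0.033 in ND, 0.025 and 0.026 in HFD, and 0.0090 and 0.0084 against C. Under the correction 15 of 39 members changed sign over both diets, 10 in ND and 18 in HFD. Of those at a smallest p, Psma2 changed to 0.169 and 0.169 over both diets and to 0.103 and 0.104 in ND. Psmc6 changed to 0.0430 and 0.0437 over both diets and 0.126 and 0.127 in HFD, and in HFD also Psma3 at 0.0289 and 0.0279 and Psmd14 at 0.0514 and 0.0514. The replicate block alone moved no count by over 1.5 times (core median -0.23 over both diets). In limma on log2 TPM with pseudocounts of 1 and 0.1, the counts were 6 and 6 over both diets, 4 and 3 in ND, 0 and 0 in HFD, 1 and 1 for siNT against C, and 1 and 1 for siNampt against C. The core medians were -0.0763 and -0.0764 over both diets, -0.119 and -0.119 in ND and -0.0423 and -0.0424 in HFD, and the regulatory medians 0.238 and 0.239 in ND and -0.169 and -0.170 for siNT against C. In ND, DESeq2 gave a count of 6, no filter 7 with a core median of -0.281, and RLE size factors a core median of -0.309. DESeq2 gave 1 in HFD and 1 for siNampt against C, and the stricter filter of 5 CPM in 2 libraries gave 1 in HFD and 1 for siNT against C. Leaving out 1 library gave counts of 8 to 16 over both diets, 3 to 13 in ND, 0 to 5 in HFD (0 without HFD_siNT replicate 2 or either ND_siNT library, 5 without HFD_siNampt replicate 1), 0 to 4 for the interaction (4 without HFD_siNampt replicate 2), 1 to 10 for siNT against C, 0 to 3 for siNampt against C and 0 to 3 for diet. The core median in ND was then -0.30 to -0.27 and the regulatory one 0.0090 to 0.088; in HFD the latter was -0.26 to 0.14. Psmd2 in the interaction ranged from -0.63 without HFD_siNampt replicate 2 to 0.016 without HFD_siNampt replicate 1, a change of sign. For Psma8 between batches, added after the data were seen, limma on log2(TPM + 1) gave -0.77 and a count of 0, and leaving out 1 library gave -1.07 to -0.75 and counts of 0 to 1. At these SEs, changes well under 2-fold could not be called.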

Other observations

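The genes around the particle differed widely in level in these blastocysts. Shfm1, which encodes the smallest subunit of the regulatory particle but carries no Psmc or Psmd symbol, had 1641 to 2394 TPM per library, above the mean of each of the 40 Psma, Psmb, Psmc and Psmd genes. Rps27a, which encodes ubiquitin fused to a ribosomal protein, was as high at 1864 to 2393 TPM, and Ubb, which encodes a chain of ubiquitin units, had 1827 to 3695 TPM. The E1 enzyme Uba1, which activates ubiquitin, had 23.8 to 42 TPM.

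Of the factors that act on proteasome genes or on proteasomes, those given here were below the constitutive core genes in level. Nfe2l1, which induces proteasome genes when the protease is inhibited, had 2.08 to 4.88 TPM, and Ddi2, the protease that releases it, had 0.66 to 4.20 TPM. Nfe2l2, its relative in the antioxidant response, had 37.0 to 59.95 TPM. Akirin2, which brings proteasomes into the nucleus, had 37.4 to 49.9 TPM. In siNampt against siNT the log2 fold changes were 0.045 (SE 0.23) for Nfe2l1, 0.0026 (SE 0.13) for Nfe2l2 and 0.0022 (SE 0.11) for Akirin2, and 0 of these 3 passed in edgeR. The first of these has a standard error that leaves changes of modest size undetectable.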
